A study of Mus musculus with 9 samples.

Results

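The mouse beta-defensin genes were examined in RNA from sorted medullary thymic epithelial cells (mTEC). Genes were taken by their symbol, Defb followed by a number, with 1 RefSeq entry per symbol, the entry with the most normalised counts. This gave 43 genes of 22999 symbols, of which 42 had at least 1 read in some library and Defb33 had none. All 43 were listed in the tables of both pairs of libraries, and 42 in the files of the actinomycin D series, which do not list the pseudogene Defb44-ps.

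RNA was sequenced from 9 libraries of mTEC from pooled thymi of young B6 mice, 1 library for each of 9 groups. Cells were gated as negative for CD45 and low for Ly51, with high (mTEChi) or low (mTEClo) surface MHC class II. The Aire pair held untreated mTEChi of wild-type (WT) mice and of Aire-/- mice, and the other pair held untreated mTEChi and mTEClo of the same WT animals. The other 5 libraries were WT mTEChi, either untreated (0 h) or kept with the transcription blocker actinomycin D at 1 uM for 1.5, 3, 6 or 12 h. As there was 1 library a group, folds describe these libraries and their intervals hold counting error alone. How the Aire allele was made was not given in the sources used here. Libraries of the pairs and of 0 h were made with a TruSeq kit and the treated ones with SMARTer amplification and Nextera, so against 0 h the kit and the treatment cannot be told apart.

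Beta-defensins are small secreted cationic peptides that kill microbes and attract immune cells, and they are folded by disulfide bonds between conserved cysteines. Some are made by barrier epithelia of skin, airway, mouth and kidney, and many others by the epididymis and testis, where several coat maturing sperm. Mature mTEC transcribe many such tissue-restricted genes, in part through the regulator Aire, and their products are presented to developing T cells.

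The coding sequences carried the mark of the family. Of 41 members with a coding sequence in the annotation (gencode vM1, mouse build mm9), 38 held 6 cysteine codons in the spacing of the family, the last pair of them adjacent. The coding sequences ran from 57 to 186 codons, with a median of 73, and the 3 above 100 codons were Defb22, Defb23 and Defb26 on chromosome 2. Lysine and arginine codons outnumbered aspartate and glutamate codons in 41 of 41, by 2 to 16. Defb8, Defb46 and Defb50 lacked the full spacing, and Defb8 had 5 cysteine codons in this annotation.

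To show the genes whose values differed most between neighbours, the 30 coding bases that end with the adjacent cysteine pair are printed from mm9, 5′ to 3′ on the gene's strand, with the pair of cysteine codons in capitals. The first set lies in the cluster on chromosome 2.
Defb19 (chr2:152401986-152402015, minus strand): ttctactgcagaactttccagatgTGCTGC
Defb36 (chr2:152438288-152438317, plus strand): gtctactgcacaaacgggaagatgTGTTGC
Defb23 (chr2:152285225-152285254, minus strand): atgcagcattgcaaagccaaaaagTGCTGC
Defb22 (chr2:152311823-152311852, minus strand): agcaaatgtcccataggaaaactgTGCTGT
Defb25 (chr2:152448194-152448223, minus strand): cacctgtgtccggatgcttctctgTGTTGC
The second set holds Defb6 and Defb1, which had many reads on chromosome 8, Defb4 as a near relative of Defb6, and both leading members of chromosome 14.
Defb6 (chr8:19228064-19228093, plus strand): cattgtggccatcctaaaatcagaTGCTGC
Defb4 (chr8:19201269-19201298, plus strand): aattgtggccattttaaagtcagaTGCTGT
Defb1 (chr8:22905010-22905039, plus strand): acctgtaaaccagataagcccaacTGTTGT
Defb30 (chr14:63654808-63654837, minus strand): attttctgtggcattcagtcgttgTGCTGC
Defb42 (chr14:63667163-63667192, plus strand): gcctactgtaacaacataatgtccTGTTGT
Among the 38 windows, those of Defb4 and Defb6 differed at 5 bases. Those of Defb12 and Defb35, in separate clusters, did not differ at any base. Reads were counted only where they aligned, and near-identical copies can share them. In 32 members every 50-base stretch within an exon occurred once in mm9. The lowest shares were 78.3% in Defb2, 78.8% in Defb35, 79.5% in Defb11 and 80.5% in Defb10, followed by 88.4% in Defb8, 89.2% in Defb9, 91.0% in Defb3, 92.7% in Defb4, 93.6% in Defb12 and 98.0% in Defb15, so the counts of these members are less certain.

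Reads summed over RefSeq entries ranged from 74161592 to 195444567 in the 5 untreated libraries and fell from 21124165 at 1.5 h to 1746825 at 12 h of treatment. Values are given as CPM, the reads of a gene per 1e6 reads of its library. For folds, a count of 0 was read at a floor of 3 reads, which is a setting and not an exact limit. That floor came to 0.021 CPM in the mTEChi library labelled Aire-KO and to 0.0405 CPM in mTEClo. Aire, the targeted gene, was read 26997 times in WT and 94481 times in the mTEChi library labelled Aire-KO. These entries add reads over the whole transcript, so they do not test the label, and the columns of this pair were assigned by the direction in which the study's methods read them. Every direction given for the Aire pair rests on that order. In bulk RNA, fewer cells of a type and less RNA per cell cannot be told apart.

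Beta-defensin transcripts were led by Defb6 in mTEChi. The 43 members together stood at 230 CPM in WT mTEChi of the Aire pair, 101 CPM in the mTEChi library of the other pair, and 77.9 CPM in the 0 h library. They stood at 48.02 CPM in the mTEChi library labelled Aire-KO and 46.02 CPM in mTEClo. Defb6 took 65.9%, 38.7% and 48.1% of those reads in the 3 untreated WT mTEChi libraries.

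Per kilobase of entry (RPKM), Defb6 had the highest level in each untreated WT mTEChi library, at 469.9 in the Aire pair, 121 in the other pair and 116 in the 0 h library. Defb1, a defensin made constitutively by kidney and other epithelia, stood at 37.9, 19.1 and 10.7 RPKM, and the inducible airway defensin Defb3 at 31.5, 25.2 and 19.6 RPKM. Defb19, known from testis, followed with 19.2, 26.9 and 18.1 RPKM. The ranges of Defb1, Defb3 and Defb19 overlapped, so their order was not settled by these 3 libraries. Defb42, an epididymal defensin, stood at 13.96, 12.7 and 3.57 RPKM, below Defb19 in each library but overlapping the range of Defb1. At 0 h, Defb23 (5.44 RPKM), Defb14 (4.07) and Defb5 (3.92) were above it. Of the 43 members, 32 had a read in all 3 of these libraries, and 15 of those had at least 100 reads in 1 of them.

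**Figure D1:**
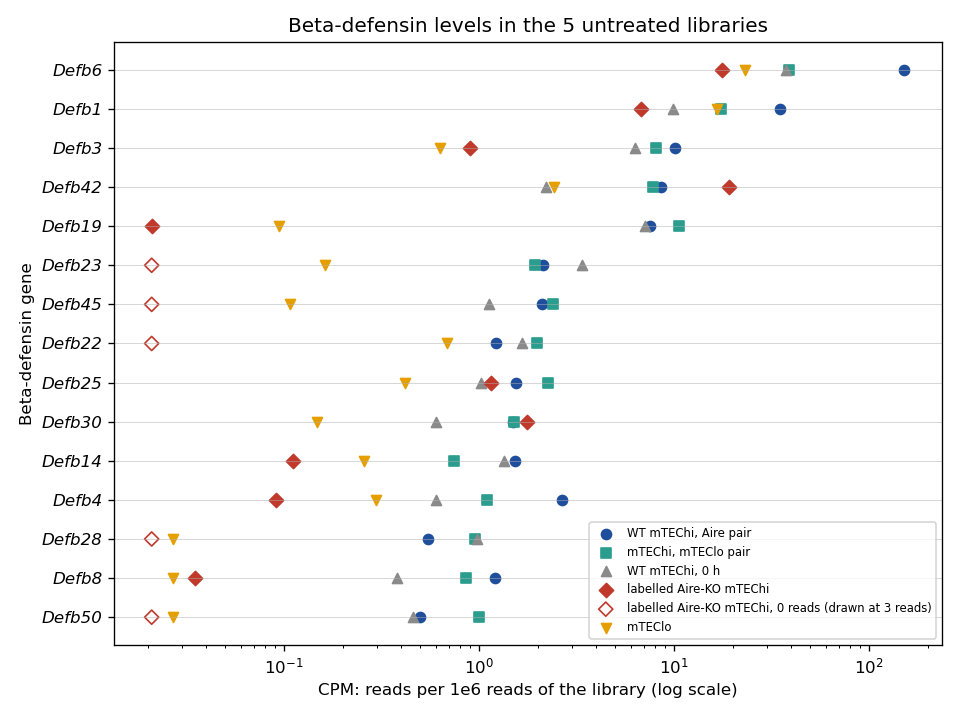
Each row is 1 of the 15 beta-defensin genes with at least 100 reads in 1 untreated WT mTEChi library, and each symbol 1 of the 5 untreated libraries, on a log scale of CPM. Open diamonds mark members at 0 reads in the mTEChi library labelled Aire-KO, drawn at the level of 3 reads. Defb42 and Defb30 were the only rows in which the mTEChi library labelled Aire-KO lay to the right of all 3 WT mTEChi libraries.

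The Aire pair addresses which transcripts of mTEChi need Aire. Most beta-defensins with reads were lower in the mTEChi library labelled Aire-KO, and several were not detected there, while Defb25, Defb30, Defb42, Defb47 and Defb48 were not lower by more than their counting intervals. Normalised counts are reads divided by the authors' size factor for the library. Among the 26 members with at least 10 normalised counts over the pair, 19 were at least 3-fold higher in WT, 4 were within 2-fold, 3 lay between and 0 were at least 3-fold lower. Of all 26761 entries with that minimum, 21.1% were at least 3-fold higher in WT and 2.03% at least 3-fold lower. The median fold was 8.49 over those members and 1.02 over all entries. Of these 26 members, 11 were without a read in the mTEChi library labelled Aire-KO, so they passed only through WT and had to differ. The 17 members under the minimum had at most 8 reads in WT and 0 in the mTEChi library labelled Aire-KO. When the minimum was set instead on the mTEChi library of the other pair (10 reads, chosen after the data were seen), 18 of 28 members were at least 3-fold higher, against 20.6% of all entries.

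Members of the chromosome 2 cluster, most of them known from the male reproductive tract, had the largest folds. Defb19 had 790 reads in WT of the Aire pair, 2069 in mTEChi from the other pair and 653 in the 0 h library, against 3 in the mTEChi library labelled Aire-KO. It was 308-fold higher in WT than in that library (95% interval 105 to 1496), and the 3 WT libraries lay close together at 7.57, 10.6 and 7.13 CPM. Defb23, a long-tailed member, had 223, 379 and 311 reads in the same WT libraries and 0 in the mTEChi library labelled Aire-KO. With 0 read at the floor of 3 reads per library, this was at least 86.9-fold higher in WT. The exact 95% interval began lower, at 70.1. Defb45 had 220, 471 and 103 reads against 0, at least 85.7-fold higher in WT. Defb22, the mouse counterpart of a sperm coat protein, had 128, 387 and 152 reads against 0, at least 49.9-fold higher. In each of these 4 genes the WT libraries lay far above their Aire-KO counterpart, although that was the deeper library of the pair.

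Smaller members of the same cluster showed the same direction with fewer reads. Defb28 had 57, 186 and 89 reads in the WT libraries against 0, at least 22.2-fold higher in WT of the pair. Defb20 had 51, 48 and 29 reads against 0, at least 19.9-fold higher. Defb29 had 11, 43 and 15 reads against 0, at least 4.29-fold higher. Defb36 had 20, 77 and 25 reads against 8, a fold of 2.92 (1.23 to 7.67), just under the limit of 3. Defb25, at the end of the cluster next to Defb36, went another way. It had 161, 441 and 94 reads in the WT libraries and 164 in the mTEChi library labelled Aire-KO, a fold of 1.15 (0.918 to 1.44). In CPM the WT libraries stood at 1.54, 2.26 and 1.03 on either side of the 1.15 in the mTEChi library labelled Aire-KO.

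Several defensins of chromosome 8 were also higher in WT, but kept reads in the mTEChi library labelled Aire-KO. Defb6 had 15834 reads in WT against 2526 in the mTEChi library labelled Aire-KO, 7.33-fold higher (7.03 to 7.65). Its 3 WT libraries differed, at 152, 39.0 and 37.4 CPM, against 17.7 CPM in the mTEChi library labelled Aire-KO and 23.0 CPM in mTEClo. With mTEChi of the other pair or the 0 h library in place of WT of the Aire pair, the fold in CPM was 2.21 or 2.12. Defb1 had 3626 reads against 972, 4.36-fold higher (4.06 to 4.69), at 34.8, 17.5 and 9.84 CPM in the WT libraries and 6.80 CPM in the mTEChi library labelled Aire-KO. With those other libraries its fold was 2.57 or 1.45. The size of both differences thus depended on which WT library was read.

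Defb3 was steadier, with 10.1, 8.11 and 6.30 CPM in the WT libraries, 0.902 CPM in the mTEChi library labelled Aire-KO and a fold of 9.58 (7.97 to 11.6) from 1057 against 129 reads. Defb4, an airway and tongue defensin, had 279, 216 and 55 reads in the WT libraries against 13, a fold of 25.1 (14.4 to 47.7). Defb14, the mouse counterpart of human beta-defensin 3, had 159, 146 and 123 reads against 16, a fold of 11.6 (6.94 to 20.8). In these 3 genes all 3 WT libraries lay above the mTEChi library labelled Aire-KO in CPM. The same held for 46.8% of all entries with at least 10 reads over the WT libraries. Defb8 had 126, 168 and 35 reads against 5, a fold of 29.5 (12.3 to 92.3). Defb46 had 19, 31 and 13 reads against 2, a fold of 11.1 (2.68 to 98.3). Defb5, next to Defb46 on the chromosome, had 25, 90 and 70 reads against 12, a fold of 2.44 (1.18 to 5.32), which was under the limit.

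At 0 reads in the mTEChi library labelled Aire-KO were also Defb50 (52, 196 and 42 reads in the WT libraries, at least 20.3-fold higher), which lacks the full cysteine spacing, and the epididymal Defb15 (40, 46 and 40 reads, at least 15.6-fold). Defb37 (19, 42 and 15 reads, at least 7.40-fold), Defb41 (14, 59 and 12 reads, at least 5.46-fold) and Defb38 (12, 0 and 3 reads, at least 4.68-fold) followed. Defb38 was the only member past 3-fold with no read in mTEChi of the other pair, and its near relative Defb37 was read there.

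On chromosome 14, Defb42 and Defb30 were higher in the mTEChi library labelled Aire-KO. Defb42 had 894, 1530 and 201 reads in the WT libraries and 2733 in the mTEChi library labelled Aire-KO, a level 2.61-fold above WT of its pair (2.42 to 2.82). In CPM it stood at 8.57, 7.83 and 2.19 in WT and at 19.1 in the mTEChi library labelled Aire-KO, above all 3. Defb30, also epididymal, had 156, 296 and 55 reads in WT and 252 in the mTEChi library labelled Aire-KO, 1.38-fold higher there (1.13 to 1.70). Defb47 (17, 18 and 14 reads against 20) had a fold of 0.994 (0.489 to 2.00), and Defb48 (6, 25 and 6 reads against 12) a fold of 0.585 (0.180 to 1.68). The gene spans of Defb30 and Defb42 overlap on opposite strands, but no exon of either overlaps an exon of another gene in the annotation.

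**Figure D2:**
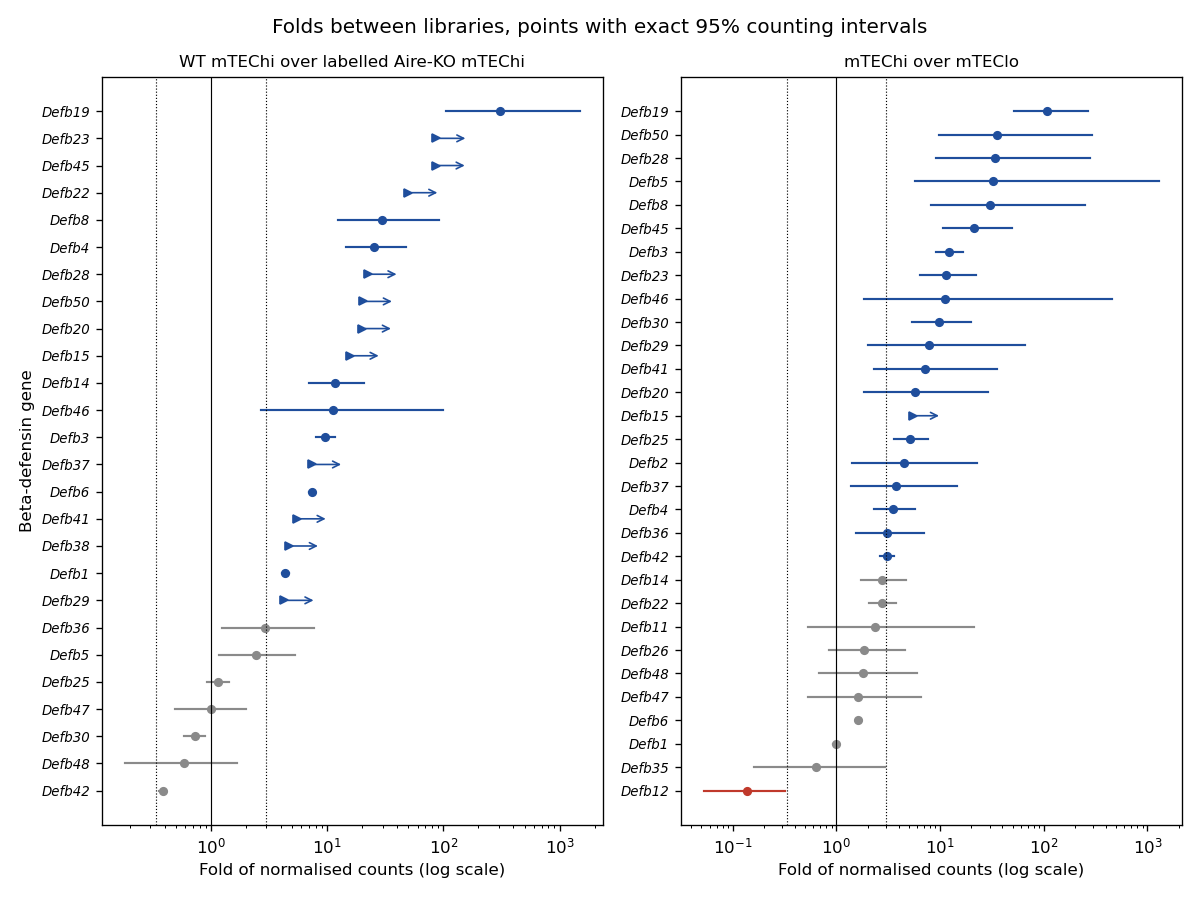
Points are folds of normalised counts on a log scale with bars for exact 95% counting intervals, for members with at least 10 normalised counts over the pair, on the left WT over labelled Aire-KO mTEChi and on the right mTEChi over mTEClo. Triangles with arrows are lower bounds against 3 reads, dotted lines mark 3-fold, blue is at least 3-fold higher, red at least 3-fold lower and grey neither. Defb25, Defb30 and Defb42 lie near or left of 1 on the left and right of 3 on the right, while Defb6 and Defb1 lie right of 3 on the left and within 2-fold on the right.

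The spread between libraries was set beside these folds by taking the 3 untreated WT mTEChi libraries as replicates, against the lone library labelled Aire-KO. These 3 libraries come from separate experiments of the study, and the lone library was assumed to vary like them. All 3 WT libraries were above the mTEChi library labelled Aire-KO in CPM for 25 of the 32 members with at least 10 reads over the WT libraries, against 46.8% of all such entries. They were all below it for 2 of the 32, Defb30 and Defb42, against 11% of entries. The test of edgeR (quasi-likelihood, Benjamini-Hochberg over 24703 entries) called 7 of 30 tested members higher in WT, against 8.21% of all entries. The 7 were Defb19 (adjusted p = 0.00841), Defb23 (0.00918), Defb22 (0.00977), Defb45 (0.0117), Defb28 (0.0177), Defb50 (0.0287) and Defb3 (0.0405), of which 5 lie in the chromosome 2 cluster. It called 0 members lower in WT, against 0.081% of entries. At an unadjusted p of 0.05 the counts were 17 higher, against 19.4% of entries, and 1 lower, Defb42, against 1.13%. DESeq2 called 12 of 41 tested members higher, against 13.7% of entries, and 0 lower, against 0.284%.

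Defb6 (adjusted p = 0.384), Defb1 (0.461), Defb14 (0.0734), Defb4 (0.109), Defb8 (0.0799) and Defb42 (0.198) did not pass the test of edgeR. Members at 0 in the mTEChi library labelled Aire-KO passed the expression filter without a read in it, so they could only come out higher in WT. Of the members called higher in WT by edgeR, Defb22, Defb23, Defb28, Defb45 and Defb50 were of this kind. Only Defb19 and Defb3 among the called members had reads in that library. Leaving out mTEChi of the other pair took the call from Defb3 and Defb50 and left 5 (5.95% of entries), while leaving out WT of the Aire pair gave 10 (10.6%) and leaving out 0 h gave 9 (11.4%).

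The pair of mTEChi and mTEClo from the same mice addresses which transcripts rise as mTEC mature. Of the 10 chromosome 2 members past the minimum of 10 normalised counts, 8 were at least 3-fold higher in mTEChi, as were Defb3 and Defb4 on chromosome 8, whereas Defb6 and Defb1 were within 2-fold. Of all 30 members past this minimum, 20 were at least 3-fold higher in mTEChi, against 11.8% of 29212 entries, and 1 was at least 3-fold lower, against 12.8% of entries. Another 6 were within 2-fold and 3 lay between. The median fold was 4.80 over these members and 1.01 over all entries. Among those at least 3-fold higher, Defb2, Defb5, Defb8, Defb15, Defb20, Defb28, Defb29, Defb37, Defb41, Defb46 and Defb50 had at most 4 reads in mTEClo. They reached the minimum only through mTEChi. The mTEClo library was also the shallower of the pair, at 74161592 reads against 195444567. With the minimum set on WT mTEChi of the Aire pair (chosen after the data were seen), 19 of 25 members were at least 3-fold higher, against 12.7% of all entries. When an exact 95% limit beyond 3 was asked for, 11 members were past it, against 8.51% of entries.

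Defb19 had 2069 reads in mTEChi and 7 in mTEClo, a fold of 107 (51.7 to 266), the highest of the members. Defb50 had 196 reads against 2, a fold of 35.4 (9.67 to 294), and Defb28 186 against 2, a fold of 33.6 (9.17 to 279). Defb5 followed with 90 reads against 1, a fold of 32.5 (5.69 to 1298), and Defb8 with 168 against 2, a fold of 30.3 (8.27 to 253). The lower library of these 4 held at most 2 reads, so their order was not settled. Defb45 had 471 reads against 8, a fold of 21.3 (10.7 to 49.5). Defb3 had 1586 against 47, a fold of 12.2 (9.12 to 16.7), and Defb23 379 against 12, a fold of 11.4 (6.45 to 22.3). Defb22 kept 51 reads in mTEClo against 387 in mTEChi, a fold of 2.74 (2.04 to 3.75), although it had none in the mTEChi library labelled Aire-KO.

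Of the 5 members with reads that were not lower in the mTEChi library labelled Aire-KO, 3 were at least 3-fold higher in mTEChi than in mTEClo, and Defb47 and Defb48 were within 2-fold. Defb30 had 296 reads against 11, a fold of 9.72 (5.35 to 19.7). Defb25 had 441 against 31, a fold of 5.14 (3.57 to 7.65). Defb42 had 1530 against 180, a fold of 3.07 (2.63 to 3.60), although its level at 0 h, 2.19 CPM, was close to the 2.43 CPM of mTEClo. By contrast Defb6 had 7631 reads against 1708, a fold of 1.61 (1.53 to 1.70), and Defb1 3416 against 1232, a fold of 1.00 (0.938 to 1.07). The pairs share no library, so these values were measured apart.

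Of the remaining members past the limit, Defb46 (31 against 1 reads), Defb29 (43 against 2), Defb41 (59 against 3), Defb20 (48 against 3), Defb2 (37 against 3), Defb37 (42 against 4), Defb4 (216 against 22) and Defb36 (77 against 9) had folds of 3.09 to 11.2. Defb15 had 46 reads against 0, at least 5.54-fold higher. Just under the limit were Defb14 (146 against 19 reads, fold 2.78) and Defb11 (13 against 2 reads, fold 2.35). Defb26, Defb47, Defb48 and Defb35 had folds of 0.632 to 1.85 from at most 41 reads. Defb12 was the only member at least 3-fold lower, with 8 reads in mTEChi and 21 in mTEClo, 7.27-fold higher in mTEClo (3.09 to 19.0).

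With the 3 untreated WT mTEChi libraries against the lone mTEClo library, 25 of 32 members stood above mTEClo in all 3, against 37.3% of entries. The test of edgeR called 3 of 30 members higher, Defb19 (adjusted p = 0.0375), Defb3 (0.0438) and Defb23 (0.0462), against 1.9% of entries, and 0 lower, against 1.44% of entries. At an unadjusted p of 0.05 the counts were 12 higher, against 10.9% of entries, and 0 lower, against 9.16%. DESeq2 called 8 of 41 tested members higher, against 7.16% of entries with an adjusted p, and 0 lower, against 3.75%. Only Defb19 kept its call without any 1 of the 3 WT libraries, as 1 member was called without mTEChi of the same pair (0.612% of entries), 4 without WT of the Aire pair (2.15%) and 7 without 0 h (6.92%).

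Markers of other cell types differed between the libraries. In the lists used here, 5 fibroblast markers summed to 789 CPM in mTEClo and 81.1 CPM in mTEChi. The 4 endothelial markers summed to 191 and 24.5 CPM. At least 3-fold higher in mTEClo were 4 of the fibroblast and 3 of the endothelial markers, against 12.8% of all entries. Neutrophil markers (5 measured) summed to 168 CPM in WT, of which Ltf had 96.6 CPM, and to 2.76 CPM in the mTEChi library labelled Aire-KO. Ltf and Camp are also among the epithelial antimicrobial genes counted below. The 7 dendritic cell and macrophage markers summed to 670 and 350 CPM, mostly Lyz2. Of those 7, WT was at least 3-fold higher for 5, with a median fold of 9.52 (Itgam 15.1, Adgre1 14.6). WT was also at least 3-fold higher for all 5 neutrophil markers, and for 21.1% of all entries. Of these lists, only the neutrophil gene Elane was at 0 in a library of the pairs, the one labelled Aire-KO. Their part in the values of the beta-defensins was not tested. The mTEC markers summed to between 14986 and 24691 CPM in the 4 libraries of the pairs, with none of 13 at 0. Epididymis markers summed to 10.6 CPM in WT, 3.23 CPM in the mTEChi library labelled Aire-KO, 13.7 CPM in mTEChi and 0.971 CPM in mTEClo.

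The genes lie in 5 clusters of mm9, and the clusters differed in the Aire pair. On chromosome 2, 11 genes span 164 kb (152284791 to 152448789), and their summed level was 16.03, 21.2 and 16.3 CPM in the WT libraries, 1.22 CPM in the mTEChi library labelled Aire-KO and 1.79 CPM in mTEClo. Of the 175 reads of this cluster in the mTEChi library labelled Aire-KO, 164 were of Defb25, and 8 of its 11 genes had no read there. The first cluster of chromosome 8, 14 genes over 523 kb (18974940 to 19497775), summed to 168, 50.8 and 47.3 CPM in WT, 18.9 CPM in the mTEChi library labelled Aire-KO and 24.6 CPM in mTEClo. Defb6 made up most of these sums.

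The second cluster of chromosome 8, 9 genes over 172 kb (22887071 to 23059322), summed to 35.8, 19.0 and 11.1 CPM in WT, 6.80 CPM in the mTEChi library labelled Aire-KO and 16.8 CPM in mTEClo. In the mTEChi library labelled Aire-KO only Defb1 of this cluster had reads. The 5 genes of chromosome 14, over 80.6 kb (63596361 to 63676986), summed to 10.3, 9.60 and 3.03 CPM in WT and 21.1 CPM in the mTEChi library labelled Aire-KO, with 2.70 CPM in mTEClo. Of their 3017 reads in the mTEChi library labelled Aire-KO, 2733 were of Defb42, and Defb43 had none in either library of the Aire pair. The 3 genes of chromosome 1 (18200134 to 18255219) had 14, 63 and 14 reads in WT, 0 in the mTEChi library labelled Aire-KO and 5 in mTEClo.

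**Figure D3:**
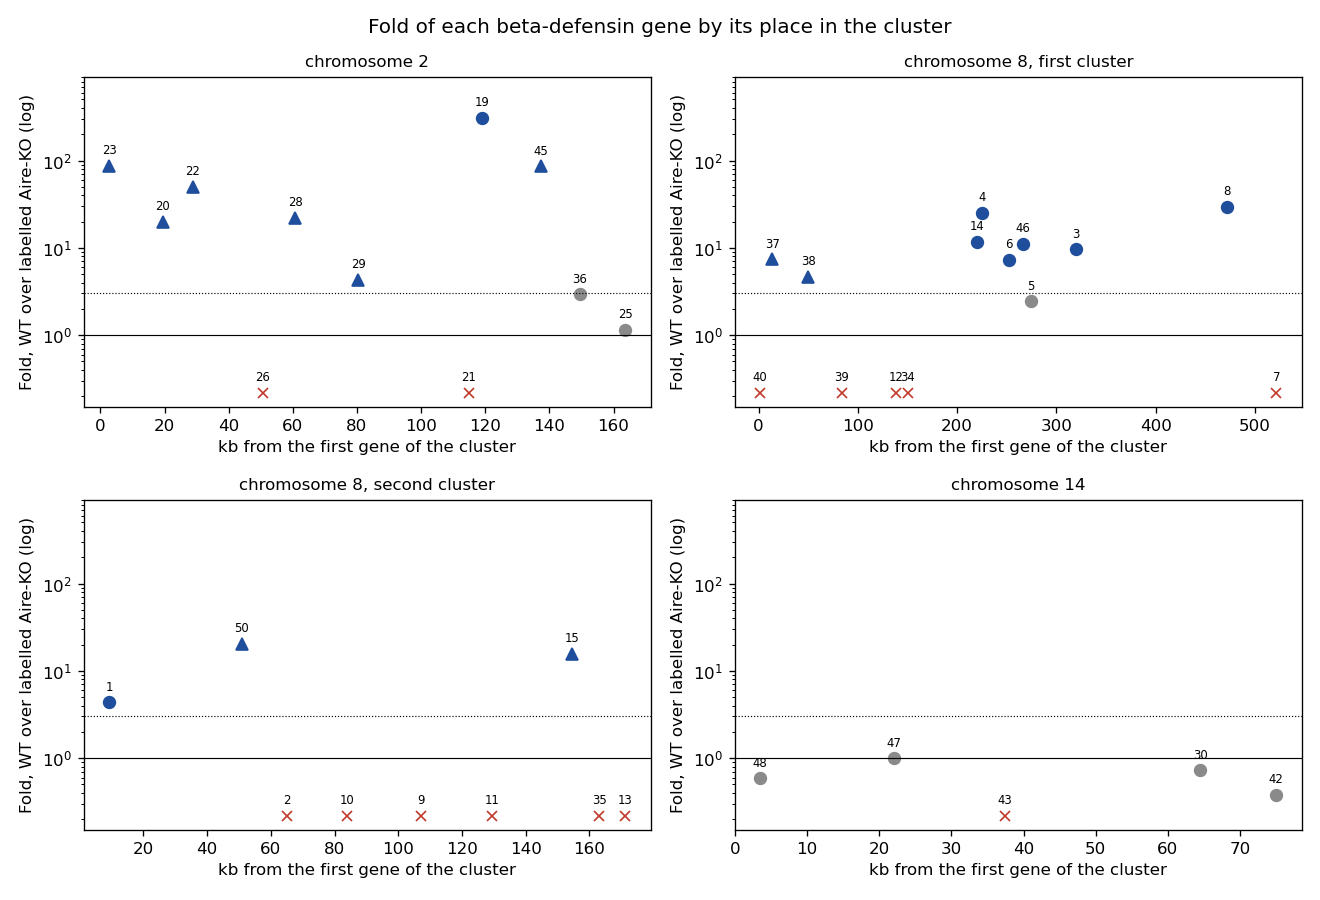
Each panel is a cluster, with each gene at its midpoint in kb from the start of the cluster's first gene and its fold of normalised counts, WT over labelled Aire-KO mTEChi, on a log scale; numbers are those of the Defb symbols. Circles are folds, triangles lower bounds against 3 reads, blue is at least 3-fold higher, grey is not, and red crosses are genes under 10 normalised counts. On chromosome 2 the folds run from 308 for Defb19 to 1.15 for Defb25, and on chromosome 14 none exceeds 1.

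Genes flanking the clusters were read beside them. Beyond Defb23 on chromosome 2, 6820408C15Rik, 14.7 kb away, had 419 reads in WT and 17 in the mTEChi library labelled Aire-KO, a fold of 28.8, and Zcchc3 beyond it a fold of 0.994. Beyond Defb25 at the other end, Rem1, 3.90 kb away, had 323 and 748 reads, a fold of 0.505. On chromosome 14, the flanking Wdfy2 had a fold of 0.475 and Ctsb 1.48. Within the first cluster of chromosome 8 lie Spag11b, an epididymal gene with a defensin-like domain (143 against 13 reads, fold 12.9), and Spag11a (9 against 0 reads). Spag11b did not differ between mTEChi and mTEClo by as much (fold 0.961). Next to the second cluster is Defa24, an alpha-defensin of Paneth cells, with 334 reads against 0, at least 130.2-fold higher in WT.

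Other defensins and antimicrobial genes were counted from lists. The 30 alpha-defensin symbols are close copies of each other, so their reads are uncertain one by one. Of 24 tested by edgeR, 19 were higher in the WT mTEChi libraries than in the mTEChi library labelled Aire-KO, against 8.21% of all entries. Against mTEClo 10 were higher, where 1.9% of entries were. In both comparisons 0 were lower, where 0.081% and 1.44% of entries were. By fold in the Aire pair, 23 of the 23 past the minimum were at least 3-fold higher in WT, against 21.1% of all entries. Of the 30 symbols, 24 were at 0 in the mTEChi library labelled Aire-KO. In mTEChi over mTEClo 23 of 27 were at least 3-fold higher, against 11.8% of entries. The list summed to 45.99 CPM in WT and 0.0769 CPM in the mTEChi library labelled Aire-KO. Defa32 and Defa33 had the same counts in each library of the pairs, as had Defa23 and Defa31. The sum and the counts of genes by fold can therefore hold the same reads more than once. Of 30 tested epithelial antimicrobial genes, 14 were higher than in the mTEChi library labelled Aire-KO, against 8.21% of all entries. Against mTEClo 8 were higher, where 1.9% of entries were, with 0 lower in either comparison. By fold, WT of the Aire pair was at least 3-fold higher for 26 of 31 genes of this list, against 21.1% of all entries. In mTEChi over mTEClo 15 of 31 were at least 3-fold higher, against 11.8%. Among its leading genes, Reg3g, a lectin of the gut and airway, was 9.41-fold higher in WT of the Aire pair and 1.24-fold in mTEChi over mTEClo. The airway protein Bpifa1 was 13.3-fold higher in WT and 1.42-fold in mTEChi, and the lysozyme genes Lyz1 and Lyz2 were 5.44-fold and 1.45-fold higher in WT.

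Genes of the male tract and of cornified epithelium were set beside them. Of 31 tested epididymis secretory genes, 10 were higher in the WT mTEChi libraries than in the mTEChi library labelled Aire-KO, against 8.21% of all entries. Against mTEClo 4 were higher, where 1.9% of entries were, with 0 lower in either comparison. By fold, WT of the Aire pair was at least 3-fold higher for 21 of the 27 past the minimum, against 21.1% of all entries. In mTEChi over mTEClo 11 of 32 were at least 3-fold higher, against 11.8%, and 4 at least 3-fold lower, against 12.8%. Ces5a and Adam28 had folds of 0.959 and 1.62 in the Aire pair, and of 5.19 and 0.118 in mTEChi over mTEClo. Crisp1 and Cuzd1 were 1.97-fold and at least 184-fold higher in WT of the Aire pair, and 46.3-fold and 30.8-fold higher in mTEChi than in mTEClo. Of 13 cornified keratinocyte genes, 3 were higher than in the mTEChi library labelled Aire-KO, against 8.21% of all entries. Against mTEClo 0 were called, where 1.9% of entries were higher and 1.44% lower. By fold, WT of the Aire pair was at least 3-fold higher for 12 of these 13, against 21.1% of all entries. In mTEChi over mTEClo 1 was at least 3-fold higher, against 11.8%, and 1 at least 3-fold lower, against 12.8%. Krt10, Spink5 and Sprr1a were 25.97-fold, 4.29-fold and 4.94-fold higher in WT of the Aire pair, with folds of 0.66, 0.62 and 0.88 in mTEChi over mTEClo. The desmosomal Dsg1a had folds of 0.36 (14964 reads in WT against 49064) and 2.45.

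Receptors and inducers were counted in the same way. None of 8 receptors reported to bind beta-defensins was called by edgeR between the WT libraries and the mTEChi library labelled Aire-KO. Of all entries, 8.21% were called higher in WT and 0.081% lower. Against mTEClo 1 receptor was higher, where 1.9% of entries were. By fold in the Aire pair, WT was at least 3-fold higher for 2 of 8, near the 21.1% of all entries. In mTEChi over mTEClo 3 were at least 3-fold higher, against 11.8% of entries, and 3 at least 3-fold lower, against 12.8%. Egfr, Tlr4 and Tlr2 had folds of 0.80, 1.98 and 2.17 in the Aire pair and of 0.31, 0.24 and 1.09 in mTEChi over mTEClo. Ccr6, the chemokine receptor through which beta-defensins attract cells, stood at 7.10, 12.3 and 13.4 CPM in the WT libraries, 14.2 CPM in the mTEChi library labelled Aire-KO and 0.310 CPM in mTEClo. Of 20 genes of induction and signalling, 0 were called between WT and the mTEChi library labelled Aire-KO. Against mTEClo 2 were lower, where 1.44% of entries were. By fold, WT of the Aire pair was at least 3-fold higher for 4 of 20, near the 21.1% of all entries. Stat3, Nfkb1 and Il1r1 had folds of 0.58, 0.70 and 0.83 in the Aire pair, and Nfkbiz 2.57. Of 8 proteases, 3 were higher than in the mTEChi library labelled Aire-KO, against 8.21% of all entries. Against mTEClo 1 was lower, where 1.44% of entries were. By fold, WT of the Aire pair was at least 3-fold higher for 4 of these 8, against 21.1% of all entries.

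The profile most like that of Defb6 over the 5 untreated libraries was sought among 22006 entries with at least 100 reads in 1 of them. It was that of Guca2a, an intestinal peptide, with 12.2, 2.65 and 2.57 CPM in the WT libraries, 1.04 CPM in the mTEChi library labelled Aire-KO and 1.33 CPM in mTEClo. The root mean square difference of the centred log2 profiles was 0.17. Ccl3 (0.18), Ttc36 (0.22), Ttr (0.23) and Rdh7 (0.31) came next. These 5 points share 3 experiments, so likeness here is a description of these libraries.

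The actinomycin D series addresses how long transcripts last once transcription stops. CPM is a share of the reads of each library, so a change is relative to the other transcripts left. Amounts per cell and lifetimes cannot be read from these values, and a rise in CPM need not be a rise in amount. Of the 42 members listed, 39 had a read at 0 h, 5 had reads in all 4 treated libraries, and 9 in none of them. At 12 h 27 members were at 0, and Defb6 had 178 of the 326 reads of all members. Values jumped between the treated libraries, and counts of 1 to 9 reads were scarce at 3 h and 6 h. At 1.5 h and 12 h, 16 and 10 members had 1 to 9 reads, as did 9.01% and 15.9% of all entries. At 3 h 29 members were at 0 and none had 1 to 9 reads, and at 6 h 31 were at 0 and none had 1 to 9 reads. Over all entries 17.8% were at 0 at 3 h and 31.5% at 6 h, with 2.01% and 0.705% between 1 and 9 reads. The spread of single genes in these libraries is therefore wider than their counting intervals.

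Defb6 stood at 37.4 CPM at 0 h and at 43.7, 48.5, 17.4 and 102 CPM at 1.5, 3, 6 and 12 h. Against 1.5 h its log2 change was 0.15, -1.33 and 1.22 at 3, 6 and 12 h, where the median of all entries was -0.03, -0.29 and -0.36. Its level at 6 h lay below, and at 12 h above, all the others. Defb1 stood at 9.84 CPM at 0 h and at 9.66, 6.16, 5.58 and 5.72 CPM, with log2 changes of -0.65, -0.79 and -0.75. Defb1 was the only one of the 5 below its 1.5 h level in all 3 later libraries.

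Defb19 stood at 7.13 CPM at 0 h and at 6.96, 11.5, 17.8 and 20.04 CPM, with log2 changes of 0.72, 1.35 and 1.52 against 1.5 h. Defb50, from 42 reads at 0 h and 17, 25, 52 and 7 reads later, stood at 0.458, 0.805, 1.79, 4.60 and 4.01 CPM. Both were above their 1.5 h level in all 3 later libraries. Defb3 stood at 6.30, 6.91, 9.03, 0.974 and 11.4 CPM, with its lowest value at 6 h. The 6 h library was low for Defb6 and Defb3 and high for Defb19 and Defb50.

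Members with reads in some treated libraries only were less even. Defb42 had 201, 83, 90, 0 and 6 reads at 0, 1.5, 3, 6 and 12 h. Defb23 had 311, 71, 0, 118 and 1 reads, and Defb25 94, 61, 0, 92 and 39 reads at these times. Defb45 had 103, 47, 42, 0 and 4 reads, Defb22 152, 48, 55, 0 and 4, and Defb4 55, 21, 15, 0 and 6. Defb14 had 123, 29, 34, 45 and 0 reads. Each of these 7 was at 0 in 1 treated library and well above 0 in the one before or after it. Defb13, picked after its values were seen, had 60 reads at 6 h and 0 at the other treated times, with 3 at 0 h, and Defb15 had 69 at 6 h and 8 at 1.5 h only.

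Defb30 had 55 reads at 0 h, 20 at 1.5 h and 0 later. Defb8 had 35, 11, 25, 0 and 0 reads, and Defb28 89, 13, 0, 32 and 0. These 3 were at 0 at 12 h, where 3 reads amount to 1.72 CPM, above their level at 0 h, so a change was not detectable at this depth.

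**Figure D4:**
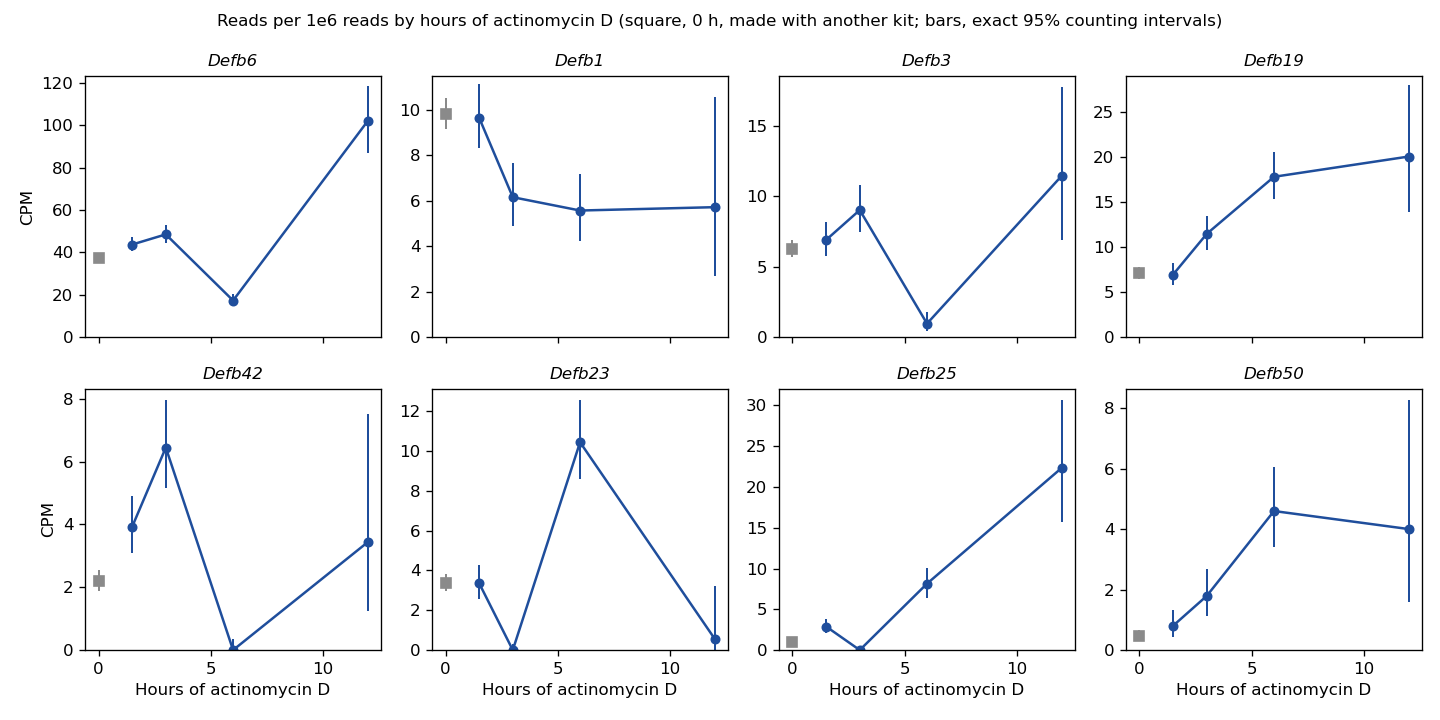
Each panel is 1 gene, with hours of actinomycin D on the horizontal axis and CPM on the vertical axis; the square is the untreated 0 h library, made with another kit, circles are the 4 treated libraries and bars exact 95% counting intervals. Defb19 and Defb50 are higher at 6 and 12 h than at 1.5 h, Defb1 is lower, and Defb23, Defb25 and Defb42 drop to 0 reads in 1 library.

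A slope over hours was fitted by edgeR to the 4 treated libraries for 13 members that passed its expression filter. It called 0 members rising or falling, and over all 20558 entries it called 0%. At an unadjusted p of 0.05 it had 0 members, and over all entries 648 rising and 1236 falling. Defb6 had a slope of 0.12 log2 units per hour (SE 0.0636, adjusted p = 0.629), Defb19 of 0.14 (SE 0.0866, adjusted p = 0.708) and Defb1 of -0.05 (SE 0.134, adjusted p = 0.967). DESeq2, which gave an adjusted p to 4958 of 24172 entries, called 0 of 33 members, and over all entries 250 rising and 143 falling. At an unadjusted p of 0.05 it had 1 member, and 1904 over all entries. Without the 6 h library the test of edgeR called 2 members rising, Defb25 (slope 0.36, adjusted p = 0.000366) and Defb6 (slope 0.13, adjusted p = 0.0281). That fit also called 3.47% of all entries rising and 5.67% falling, so the whole test changed with this library.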

How the data were processed

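The members, gene lists and tests were chosen with earlier results of these data known. Per the labels and methods, reads were filtered with CASAVA, aligned with Bowtie 1.0.0 to the mm9 mouse genome and counted with bedtools within RefSeq exons. The authors deposited raw counts for the actinomycin D series. For both pairs they deposited signal values, counts divided by a size factor of DESeq, of which 100% were whole multiples of 1 step per library within 0.1, so whole reads were recovered. The deposited tables also hold fold changes and p-values of the authors' own comparisons, which were not used. Counting did not use strand. Entries were named with RefSeq's gene table for GRCm38.p6 (98.1% of 30794 entries matched), used for names only, and coordinates and windows from gencode vM1 on mm9.

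Folds are ratios of normalised counts with exact 95% intervals given the summed reads. A library at 0 was read at 3 reads, and no fold was given where both were at or under that. Folds given as at least rest on this floor, and their exact 95% limits lie below them. Intervals and floors cover counting error only, since PCR copies are not separate molecules. Tests used edgeR 4.0.16 (quasi-likelihood, TMM factors, default expression filter, Benjamini-Hochberg at 0.05) in R 4.3.3, with 2 residual degrees of freedom in each fit, and DESeq2 1.42.0 as an alternative. P-values measure the spread between these libraries, which may be technical. Log2 CPM used 0.5 added reads. Other steps ran in Python 3.11.15 with scipy 1.17.1, pandas 2.3.3, matplotlib 3.10.9 and numpy 2.4.6. Every member with at least 10 normalised counts in either pair (31) was described, those with at least 100 reads in 1 untreated WT mTEChi library in every library, and the leading genes of other lists by their mean. The other 12 appear only in counts or beside a limit. The windows of some members are not reported here.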

Additional observations from a re-analysis of the deposited data

How the results depend on the processing

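The counts of members at least 3-fold higher ranged from 14 to 21 (19 as reported) in the Aire pair and from 16 to 23 (20 as reported) in the mTEChi and mTEClo pair over other scalings, minimums, fold limits and WT libraries, except that 11 stood past 3-fold by the exact limit in the latter. Scaling by library totals raised every log2 fold of the Aire pair by 0.23. Called members were 7 against the library labelled Aire-KO, 12 in DESeq2 and 5 to 10 without 1 WT library each. Against mTEClo they were 3, 8 in DESeq2 and 1 to 7 without 1 WT library each. Called slopes were 0, and 0 to 2 without 1 treated library each. Defb25 against the library labelled Aire-KO (log2 fold -0.29 to 0.51 without 1 WT library each, lowest without mTEChi of the other pair) and Defb1 against mTEClo (-0.45 to 0.58, lowest without WT of the Aire pair) changed sign, neither being called. The cause was not tested. No paired analysis was possible because the groups share fewer than 2 replicate numbers. Depth limits the 12 h library most, where 3 reads amount to 1.72 CPM.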
